A study of Mus musculus with 15 samples.

Results

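The 35 genes described here encode aminoacyl-tRNA synthetases, and they were taken by symbol from the 32372 genes of the UMI matrix. Of the 35, 19 encode cytosolic enzymes or enzymes that serve both compartments, and 16, whose symbols end in 2, encode mitochondrial enzymes. All 35 were present under the listed symbol, and all 35 passed the filter on low counts, as did 14260 genes in all. Aminoacyl-tRNA synthetases join each amino acid to its tRNA, the step that makes amino acids available to the ribosome. The cytosol and the mitochondrion translate with separate tRNAs, so most amino acids have one nuclear gene for each compartment, while Gars and Kars supply both from a single gene. Several cytosolic enzymes are held together with scaffold proteins in a multi-synthetase complex, and many cytosolic synthetase genes are known targets of ATF4, the transcription factor of the amino acid response.

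The cells were CD45 bead-enriched from cortex and hippocampus of male hTfR KI mice on the C57BL/6J background, aged 3.5 months, each given a single 10 mg/kg dose of antibody. ATV:4D9 is a TREM2-activating antibody whose Fc binds the transferrin receptor of these mice, a mouse receptor with a human apical domain. ATV:RSV is a control antibody on the same transport vehicle. ATV:RSV mice were sampled at day 1 and ATV:4D9 mice at day 1, 7, 14 or 28, 3 mice per group, and every one of the 3 batches held a mouse from all 5 groups. Days 7, 14 and 28 had no control of their own day, and each comparison with ATV:RSV used the same 3 mice. All mice carried the knock-in and none lacked an antibody dose.

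Each mouse gave 5667 to 7596 cells and 32341960 to 70307384 UMIs, and each member had 62 to 11193 UMIs in each mouse. The day 1 ATV:4D9 cells held more UMIs (medians of 8202 to 8996 per cell) than the ATV:RSV cells (4975 to 5750). Their median percent of mitochondrial UMIs was higher too (3.96% to 4.50% against 3.11% to 3.38%), and its part in the results was not tested. Between 19.6% and 27.4% of the day 1 ATV:4D9 cells had a UMI of the proliferation genes Mki67 or Top2a, against at most 0.684% in any other mouse. The 8 microglial markers summed to 13153 to 14641 CPM (UMIs per 1000000 UMIs of the mouse, here without further scaling) at day 1 and to 19761 to 21075 CPM in the ATV:RSV mice. The 44 markers of 10 other cell types summed to 289 to 335 CPM at day 1 and to 346 to 629 CPM in ATV:RSV, with none at 0 throughout. Among these lists, the 4 monocyte markers (13.3 to 17.6 CPM at day 1 and 4.39 to 11.2 CPM in ATV:RSV) and the 5 T or NK cell markers (0.398 to 1.56 and 0.151 to 0.345 CPM) were higher at day 1 without overlap. The B cell, oligodendrocyte and neuron lists were lower without overlap. At day 1 the B cell list was the largest of the 10, at 205 to 223 CPM, against 229 to 278 CPM in ATV:RSV. The ependymal or choroid list ran from 0.154 to 234 CPM among the ATV:RSV mice, so the sum is no measure of all other cell types alike. Without the cells that held 3 or more markers of another type, the calls of synthetases at day 1 were again 28 higher and 2 lower. Any 2 libraries shared 5 to 27 cell barcodes. Levels below are CPM of the UMIs summed over all cells of a mouse, scaled by TMM (trimmed mean of M values). They are relative levels after that scaling and not plain shares of a mouse's UMIs.

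At day 1 after ATV:4D9, 28 of the 35 synthetases were called higher than in the ATV:RSV mice, 2 were called lower and 5 were not called (limma-voom, Benjamini-Hochberg adjusted p under 0.05 over 14260 genes). Of all genes tested, 34.7% were called higher and 34.6% lower. The median log2 fold change was 0.60 over the members and -0.05 over all genes. Among the cytosolic members 16 of 19 were higher and none lower, with a median of 0.81. Among the mitochondrial members 12 of 16 were higher and 2 lower, with a median of 0.38. The extremes were Vars at 3.47-fold and Wars2 at 0.68-fold. The day 1 mice exceeded the ATV:RSV mice without overlap in 28 members and lay below them in 2, a separation seen in 71.5% of all genes tested. Within each of the 3 batches, the day 1 ATV:4D9 mouse exceeded the ATV:RSV mouse in 29 of 35 members, and lay below it in 5, Aars, Nars, Hars2, Lars2 and Wars2. Of all genes, 39.7% were higher and 41.8% lower in every batch.

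These counts depend on how libraries are scaled. With library size alone, the median log2 fold change stood at -0.29 over all genes, at 0.57 over the cytosolic and at 0.14 over the mitochondrial members. The cytosolic calls were then 16 higher and 2 lower, and the mitochondrial calls were 5 higher and 3 lower, where 25.9% of all genes were called higher and 48.8% lower.

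**Figure D1:**
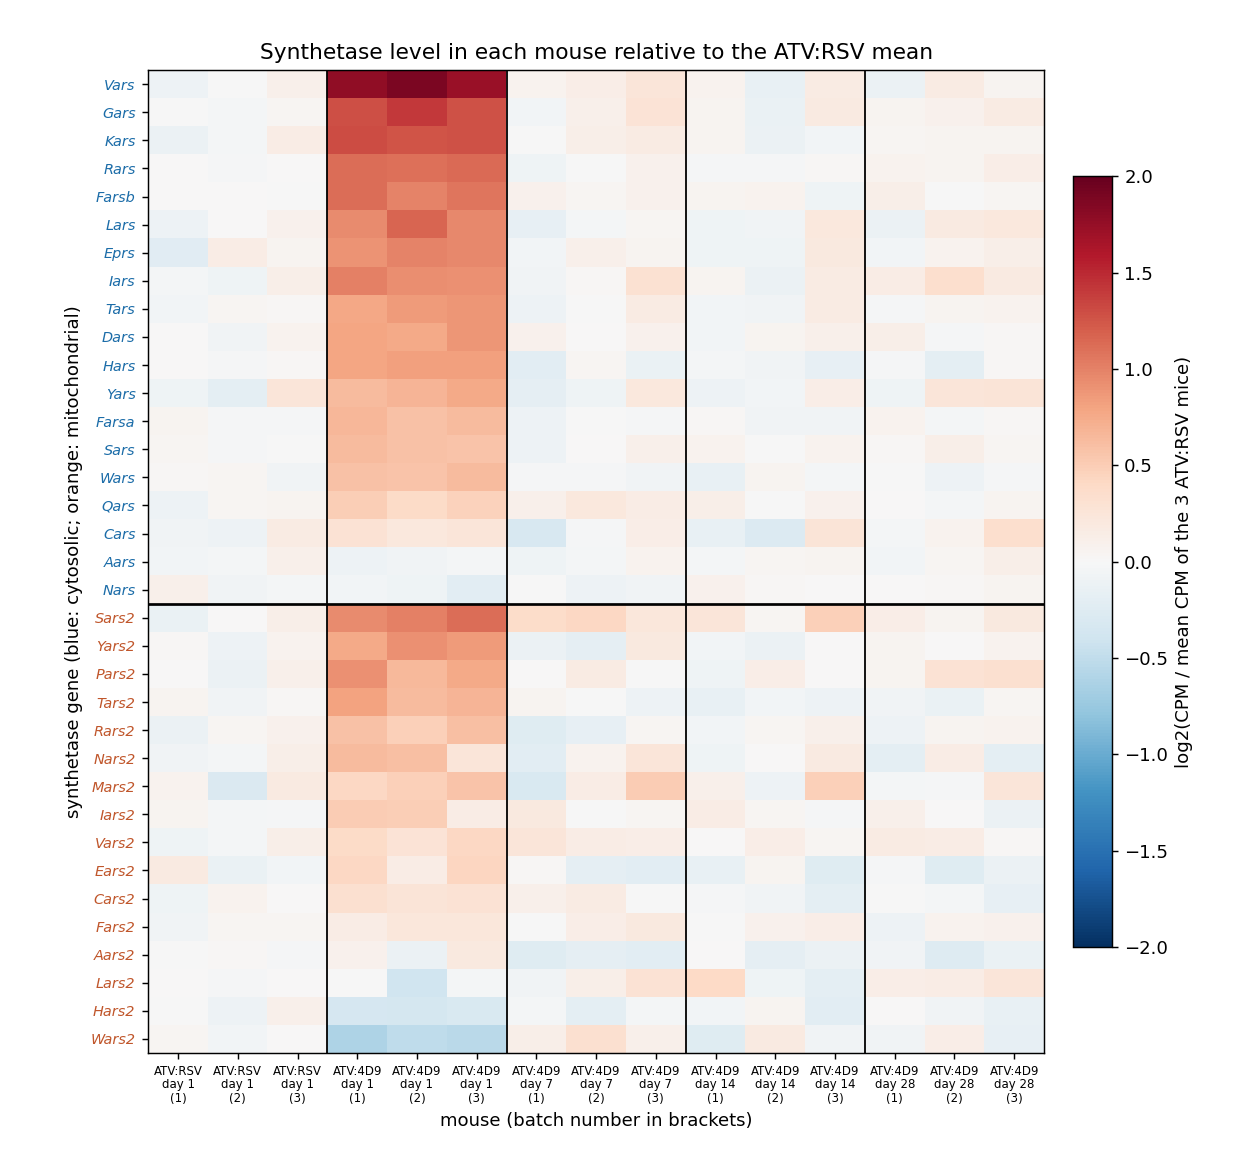
Level of each synthetase (rows, ordered by day 1 change within each compartment) in each of the 15 mice (columns), as the log2 ratio of its CPM to the mean CPM of the 3 ATV:RSV mice, with red for higher and blue for lower. The 3 day 1 ATV:4D9 columns are red for most rows, pale or pale blue for Aars, Nars, Aars2 and Lars2, and blue for Hars2 and Wars2, while the columns of days 7, 14 and 28 are close to those of ATV:RSV.

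The largest fold change among the members was that of the valine enzyme. Vars (chr17:35000987-35016322, mm10) stood at 25.0, 27.0 and 29.0 CPM in the ATV:RSV mice and at 91.9, 99.7 and 89.0 CPM in the day 1 ATV:4D9 mice. All 3 day 1 mice were more than 3 times above the ATV:RSV mean, and the 9 mice of the later days lay at 24.5 to 32.0 CPM. The log2 fold change at day 1 was 1.80 ± 0.08 (SE), adjusted p = 3.26e-11.

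Gars (chr6:55038007-55079500) and Kars (chr8:111993443-112011323), the glycine and lysine enzymes of both cytosol and mitochondrion, came next. Gars measured 26.8, 26.0 and 27.7 CPM under ATV:RSV and 65.8, 71.7 and 65.0 CPM at day 1. Kars measured 12.6, 13.3 and 15.1 CPM under ATV:RSV and 33.9, 32.8 and 33.0 CPM at day 1. The groups did not overlap for either gene. Their log2 fold changes were 1.33 ± 0.08 (SE), adjusted p = 5.7e-10 for Gars, and 1.29 ± 0.06 (SE), adjusted p = 6.98e-11 for Kars. Over the later days Gars lay between 24.6 and 32.5 CPM and Kars between 12.5 and 15.3 CPM.

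Rars, Farsb and Lars followed, each with a log2 fold change above 1. Rars, which charges arginine tRNA, was at 29.0, 28.2 and 28.9 CPM in the ATV:RSV mice and at 62.1, 61.6 and 63.0 CPM at day 1. It had the smallest adjusted p of the members (1.12 ± 0.05 (SE), adjusted p = 7.51e-12), and the 9 later mice held 27.1 to 31.4 CPM. Farsb, the beta chain of the phenylalanine enzyme, was at 17.1, 17.1 and 16.9 CPM and then at 37.1, 33.9 and 35.9 CPM (1.06 ± 0.06 (SE), adjusted p = 1.12e-10). Its partner chain Farsa rose less, by 0.63 ± 0.05 (SE) on the log2 scale, from 32.1 ± 0.93 to 49.6 ± 1.1 CPM (mean ± SD, n = 3 each). Lars, the leucine enzyme, was at 37.7, 40.8 and 43.1 CPM and then at 77.8, 90.4 and 78.7 CPM (1.02 ± 0.10 (SE), adjusted p = 1.19e-07). The 3 day 1 mice exceeded every ATV:RSV mouse in each of these genes.

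The remaining cytosolic members called higher were Eprs (0.96), the fused glutamate and proline enzyme, Iars (0.95), Tars (0.84), Dars (0.81), Hars (0.81), Yars (0.71), Sars (0.60), Wars (0.60) and Qars (0.45), with log2 fold changes in brackets. Their adjusted p values by limma-voom ran from 3.14e-09 for Dars to 5.54e-05 for Yars. Yars had the widest spread for its mean among the ATV:RSV mice (13.8, 12.7 and 17.3 CPM), all below the day 1 mice (22.7, 23.4 and 24.7 CPM). Wars, whose human counterpart is known to be induced by interferon gamma, was at 19.3, 19.4 and 18.0 CPM under ATV:RSV and at 28.5, 28.0 and 29.3 CPM at day 1. The groups did not overlap, the log2 fold change was 0.60 ± 0.06 (SE), adjusted p = 9.94e-08, and the later mice held 17.1 to 19.6 CPM. An exon stretch of Iars shares 96.0% identity over 1656 bases with the predicted gene Gm4849, ending 1090 bases before the 3′ end of Iars. Whether the counting split reads between them was not tested.

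The complex was measured through 7 members, Dars, Eprs, Iars, Kars, Lars, Qars and Rars. All 7 were called higher at day 1, with a median log2 fold change of 0.96, and 9 of the 12 cytosolic members outside it were called higher, with a median of 0.67. The shares over all genes tested were 34.7% higher and 34.6% lower. The scaffold genes, which are not synthetases, were called higher as well. Eef1e1 went from 21.7 ± 2.2 to 70.3 ± 3.3 CPM, Aimp2 from 12.3 ± 0.78 to 32.9 ± 0.67 CPM and Aimp1 from 82.9 ± 1.1 to 132.8 ± 1.2 CPM (mean ± SD, n = 3 each), log2 fold changes of 1.70, 1.42 and 0.68. Mars, the methionine enzyme of the complex, rose by 0.82 on the same scale.

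Aars, Cars and Nars were the cytosolic members not called at day 1. Nars, the asparagine enzyme, stood at 196, 174 and 179 CPM in the ATV:RSV mice and at 176, 172 and 159 CPM at day 1. The groups overlapped (-0.12 ± 0.05 (SE), adjusted p = 0.0611), and the later mice held 171 to 195 CPM. Aars, the alanine enzyme, stood at 52.8, 53.4 and 58.8 CPM under ATV:RSV and at 51.3, 52.4 and 53.4 CPM at day 1. The groups overlapped here too (-0.07 ± 0.06 (SE), adjusted p = 0.298), with 52.0 to 59.4 CPM later. Cars, the cysteine enzyme, stood at 21.9, 21.4 and 25.7 CPM under ATV:RSV and at 28.3, 26.5 and 27.2 CPM at day 1. Its day 1 mice were above each ATV:RSV mouse without passing the test (0.25 ± 0.13 (SE), adjusted p = 0.0945), and the later mice ranged from 18.4 to 29.1 CPM. With the mice paired by batch, Cars was called higher (adjusted p = 0.0197, limma-voom) and Nars lower (adjusted p = 0.0273), at log2 fold changes of 0.25 and -0.12. Nars was also called lower without ATV:RSV replicate 2 (-0.15) or day 1 replicate 1 (-0.14), and Cars higher without day 14 replicate 3 (0.25). With library size alone, Aars and Nars were both called lower, at -0.31 and -0.36, and Cars was not called. Over 25 alternatives the log2 fold change of Cars ran from 0.01 to 0.33. The last 1326 exon bases of Aars also belong to Exosc6 on the same strand in GENCODE M21, so the Aars count may miss or share reads there.

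Promoters were read from RefSeq (GRCm38.p6, 250 bases before and 50 after each annotated start), and the windows of 25 of the 35 members were searched, 11 cytosolic and 14 mitochondrial. No entry was matched for Cars, Hars, Lars, Nars, Rars, Vars, Wars, Hars2 and Pars2. The C/EBP-ATF response element, through which ATF4 is known to act, was searched on both strands as TGATGCAA and as TGATGNAAT, which overlap each other. At least one of them was found in 4 of the 11 cytosolic promoters (Gars, Iars, Tars, Yars) and in 0 of the 14 mitochondrial ones, and in 1.67% of all 32850 windows (0.984% of the 13616 windows of genes tested here). The matches are shown in capitals, 5′ to 3′ on the strand of the gene, because each lies in the window around the start of a cytosolic enzyme's gene.
Gars (chr6:55037851-55038000, plus strand): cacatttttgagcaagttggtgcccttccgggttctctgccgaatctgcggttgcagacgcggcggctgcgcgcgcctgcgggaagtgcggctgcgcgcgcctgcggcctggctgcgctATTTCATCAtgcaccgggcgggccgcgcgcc
Tars (chr15:11399666-11399808, minus strand): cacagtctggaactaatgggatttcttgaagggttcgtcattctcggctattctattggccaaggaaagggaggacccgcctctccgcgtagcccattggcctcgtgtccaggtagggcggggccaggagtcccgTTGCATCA
Iars (chr13:49682127-49682153, plus strand): actgtcagtATTGCATCAcctccagac
Yars (chr4:129189897-129189923, plus strand): gagctcagcTGATGCAAcccgacggga
Counted from the RefSeq start, the capitals span -31 to -23 in Gars, -15 to -8 in Tars, 7 to 15 in Iars and 4 to 11 in Yars. The Gars and Tars matches lie before the gene in GENCODE M21 as well, and the Iars and Yars matches lie within the transcribed gene.

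Of the other motifs, the E-box CACGTG was in 3 cytosolic promoters (Farsb, Iars, Tars) and 1 mitochondrial one (Ears2), against 7.15% of all windows and 9.8% of the windows of genes tested here. The ETS motif CCGGAAG was in 4 cytosolic (Farsa, Gars, Kars, Sars) and 4 mitochondrial promoters (Cars2, Mars2, Rars2, Sars2), against 8.86% of all windows and 17% of those of tested genes. The NRF1 motif GCGCANGCG was in 3 cytosolic (Farsb, Kars, Tars) and 4 mitochondrial ones (Iars2, Mars2, Vars2, Wars2), against 6.25% and 12.7%. The interferon-type motif GAAANNGAA was in Qars alone of the windows searched (8.56% of all windows and 7.28% of those of tested genes), and TTCNNNGAA in Kars and Nars2 (8.30% and 6.82%).

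The mitochondrial members had the lower median change and were called in both directions. Sars2, the mitochondrial serine enzyme, had the largest rise of them, at 2.49, 2.75 and 2.96 CPM under ATV:RSV and 5.26, 5.47 and 5.90 CPM at day 1. The groups stood apart (1.02 ± 0.11 (SE), adjusted p = 6.95e-07), and the later mice ranged from 2.81 to 3.81 CPM. Yars2, the tyrosine enzyme, was at 13.8, 12.7 and 14.4 CPM and then at 23.1, 25.7 and 24.7 CPM. It did not overlap either (0.84 ± 0.08 (SE), adjusted p = 1.32e-07) and lay at 12.1 to 15.7 CPM later. Pars2, the proline enzyme, was at 2.04, 1.88 and 2.17 CPM and then at 3.85, 3.20 and 3.42 CPM (0.78 ± 0.12 (SE), adjusted p = 2.78e-05). Tars2, the threonine enzyme, was at 15.6, 14.3 and 15.3 CPM and then at 26.2, 23.4 and 24.2 CPM (0.71 ± 0.06 (SE), adjusted p = 7.83e-08). Pars2 and Tars2 also separated the groups, and later lay at 1.92 to 2.53 and 13.7 to 15.6 CPM.

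Smaller rises were called for Rars2 (0.56), Nars2 (0.52), Mars2 (0.48), Iars2 (0.39), Vars2 (0.36), Ears2 (0.32), Cars2 (0.29) and Fars2 (0.20), with log2 fold changes in brackets. Ears2 was the one called member whose groups overlapped, at 8.20, 6.66 and 6.97 CPM under ATV:RSV and 9.72, 8.02 and 9.78 CPM at day 1. Mars2 had as few as 62 UMIs in a mouse and an adjusted p of 0.0269 by limma-voom. With library size alone, Cars2, Ears2, Iars2, Mars2, Nars2 and Vars2 were not called and the log2 fold change of Fars2 was -0.04. Ears2 was not called without ATV:RSV replicate 2 or 3 or day 1 replicate 1 (0.26 to 0.29), Mars2 without ATV:RSV replicate 2 or day 1 replicate 3 (0.36 and 0.45), and Fars2 without ATV:RSV replicate 1 (0.16).

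Hars2 and Wars2 were the members called lower, and they are singled out after their values were seen. Wars2, the mitochondrial tryptophan enzyme, fell from 4.87, 4.58 and 4.77 CPM in the ATV:RSV mice to 3.08, 3.35 and 3.25 CPM at day 1. All 3 day 1 mice were below every ATV:RSV mouse (-0.56 ± 0.12 (SE), adjusted p = 0.000506), and at day 7 the gene stood at 5.15, 5.94 and 5.09 CPM. Hars2, the mitochondrial histidine enzyme, fell from 11.4, 10.6 and 12.3 CPM to 9.06, 8.95 and 9.26 CPM (-0.33 ± 0.08 (SE), adjusted p = 0.00163), again without overlap. Counted as UMIs per 1000 cells, Wars2 was at 30.9 in ATV:RSV and 26.9 at day 1 (means of 3 mice), while Hars2 was at 74.5 and 76.0. Hars2 (chr18:36783008-36792562, plus strand) and Hars (chr18:36766528-36783205, minus strand) are head-to-head neighbours with 195 exon bases in common on opposite strands, and Hars was called higher. The shared bases lie at the start of both genes, and the libraries were made with a 3′ UMI kit. In all, 12 of the 35 members had exon bases in common with another gene. Among them were Iars2 with Rab3gap2 (2034 bases), Fars2 with Nrn1 (501) and Cars2 with Naxd (422), each on opposite strands. Whether the counting used the strand is not given in the sources used here, and the part of these overlaps in the counts was not tested.

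Aars2 and Lars2 were not called. Aars2 stood at 4.58, 4.66 and 4.53 CPM under ATV:RSV and at 4.89, 4.21 and 5.28 CPM at day 1, with overlap (0.05 ± 0.09 (SE), adjusted p = 0.677) and 3.84 to 4.63 CPM later. Lars2, the leucine enzyme, stood at 64.9, 63.2 and 64.9 CPM and at 64.3, 49.0 and 62.4 CPM (-0.15 ± 0.13 (SE), adjusted p = 0.329). Replicate 2 of day 1 was low for Lars2 and the other 2 mice were near ATV:RSV, and in the later mice it spread from 56.0 to 84.5 CPM. With library size alone, Lars2 was called lower (-0.39, adjusted p = 0.0117 by limma-voom).

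**Figure D2:**
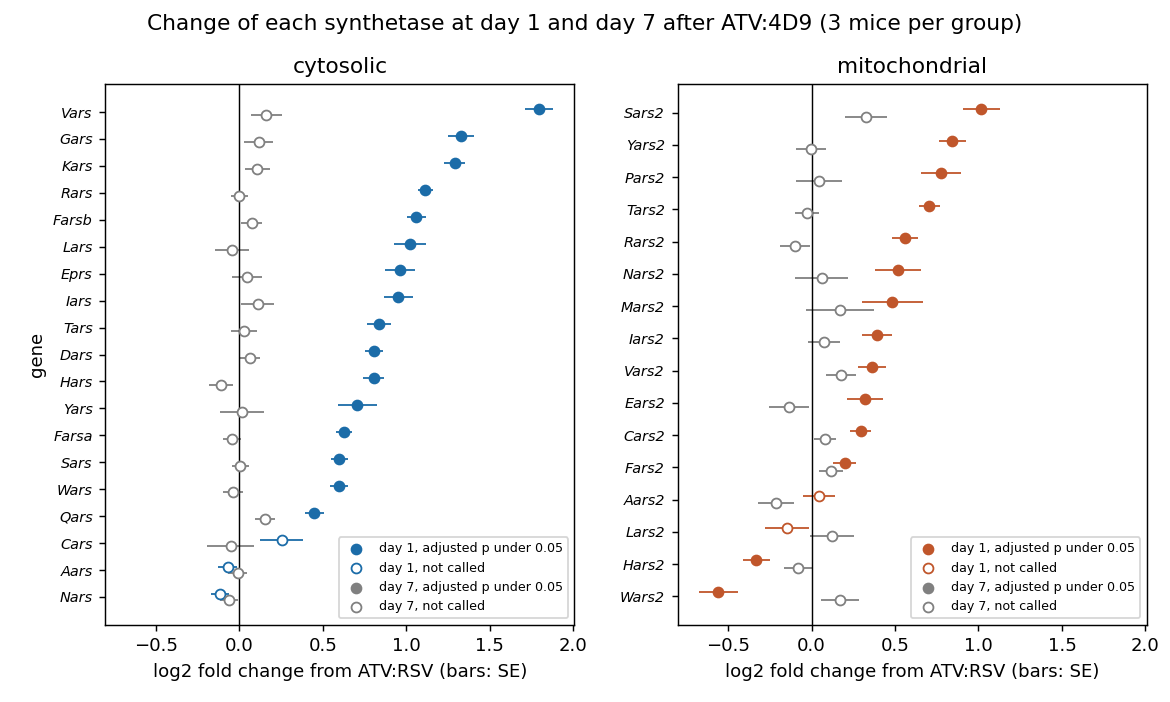
Log2 fold change from the ATV:RSV mice for each cytosolic (left) and mitochondrial (right) synthetase, coloured at day 1 and grey at day 7, with bars for the SE and filled points for calls at an adjusted p under 0.05 (limma-voom). Day 1 points run from -0.56 for Wars2 to 1.80 for Vars, and all day 7 points are open and lie between -0.21 and 0.33.

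For 16 pairs of a cytosolic and a mitochondrial gene for the same amino acid, the log2 ratio of their CPM was taken in each mouse, with no test. Eprs enters with both Ears2 and Pars2, and Fars2 with both Farsa and Farsb, so the pairs are not independent. The cytosolic change was the larger one in 11 of 16 pairs, and the median difference between the 2 log2 fold changes was 0.49. In 9 pairs the ratio in each day 1 mouse lay above that in every ATV:RSV mouse, in 2 below, and in 5 the groups overlapped. No such share was taken over other ratios of genes, and of single genes 71.5% stood apart. The 9 pairs were those of Vars, Lars, Hars, Wars, Farsb, Farsa, Iars and Rars with their mitochondrial counterparts and of Eprs with Ears2. The mean log2 ratio of Vars to Vars2 went from 2.51 ± 0.030 to 3.94 ± 0.16, that of Wars to Wars2 from 2.00 ± 0.084 to 3.15 ± 0.075, and that of Lars to Lars2 from -0.67 ± 0.10 to 0.50 ± 0.34 (mean ± SD, n = 3 each). The ratio moved the other way for asparagine, where Nars over Nars2 went from 5.85 ± 0.16 to 5.23 ± 0.14, and for serine, where Sars over Sars2 went from 4.18 ± 0.15 to 3.76 ± 0.11. Alanine, cysteine, threonine, tyrosine and Eprs with Pars2 overlapped. At day 7 the ratio did not overlap ATV:RSV in 4 pairs, where 21.2% of single genes did not. It lay above for alanine and below for Farsa with Fars2, tryptophan and serine, where the groups nearly met.

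**Figure D3:**
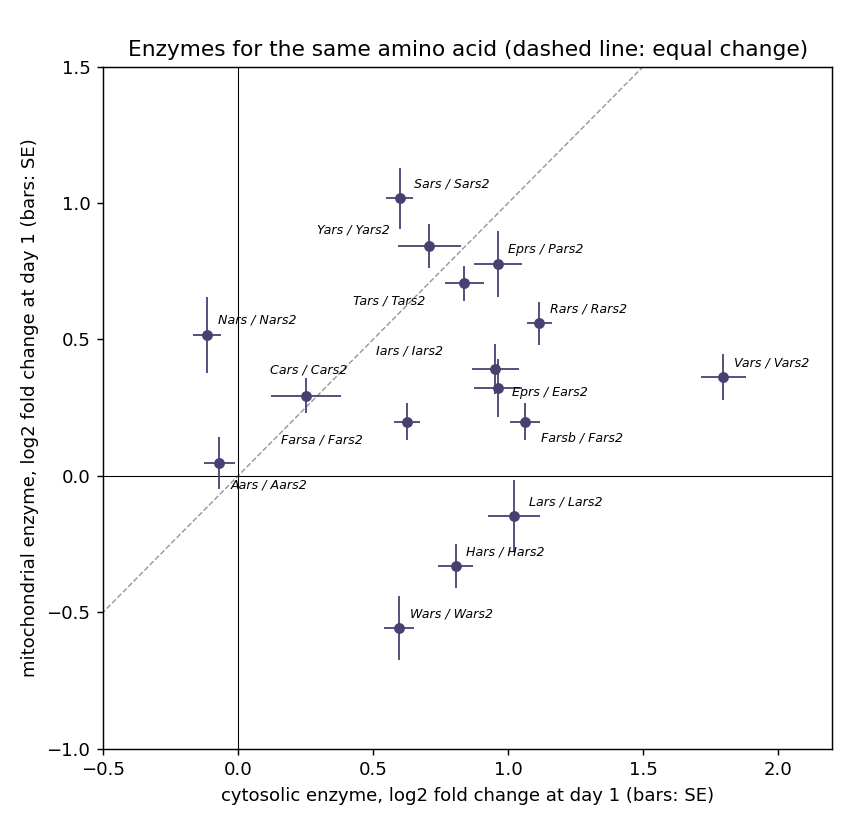
Day 1 log2 fold change of the cytosolic gene (horizontal) against that of the mitochondrial gene for the same amino acid (vertical) in 16 pairs, with bars for the SE and a dashed line where both are equal. Of the 16 points, 11 lie below the line, with Vars and Vars2 the farthest to the right at 1.80 and 0.36, and 5 lie above it, among them Nars with Nars2 and Sars with Sars2.

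Summed over its members, the cytosolic set measured 719, 717 and 745 CPM in the ATV:RSV mice and 1148, 1169 and 1138 CPM at day 1, a ratio of the means of 1.58. The mitochondrial set measured 207, 204 and 213 CPM and then 258, 238 and 250.1 CPM, a ratio of 1.19. Both sets were above every ATV:RSV mouse in all 3 day 1 mice. The cytosolic sum was 3.49 ± 0.023 times the mitochondrial one under ATV:RSV and 4.64 ± 0.25 times at day 1, then 3.36 ± 0.031, 3.53 ± 0.33 and 3.51 ± 0.091 at days 7, 14 and 28 (mean ± SD, n = 3 each). The day 7 ratios (3.32 to 3.38) lay below those of every ATV:RSV mouse (3.47 to 3.51). The sums weight each member by its UMIs. Nars made up 25.2% of the cytosolic sum and Lars2 30.9% of the mitochondrial sum under ATV:RSV, and without them the ratios of day 1 to ATV:RSV were 1.81 and 1.32. As raw UMIs per cell, the cytosolic set held 4.37 to 5.01 in ATV:RSV and 8.87 to 10.3 at day 1, and the mitochondrial set 1.25 to 1.45 and 1.95 to 2.30. As CPM without TMM, the mitochondrial sum was 217 to 225 in ATV:RSV and 214 to 233 at day 1, so that the groups overlapped, while the cytosolic sum still separated them (758 to 788 and 999 to 1055).

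**Figure D4:**
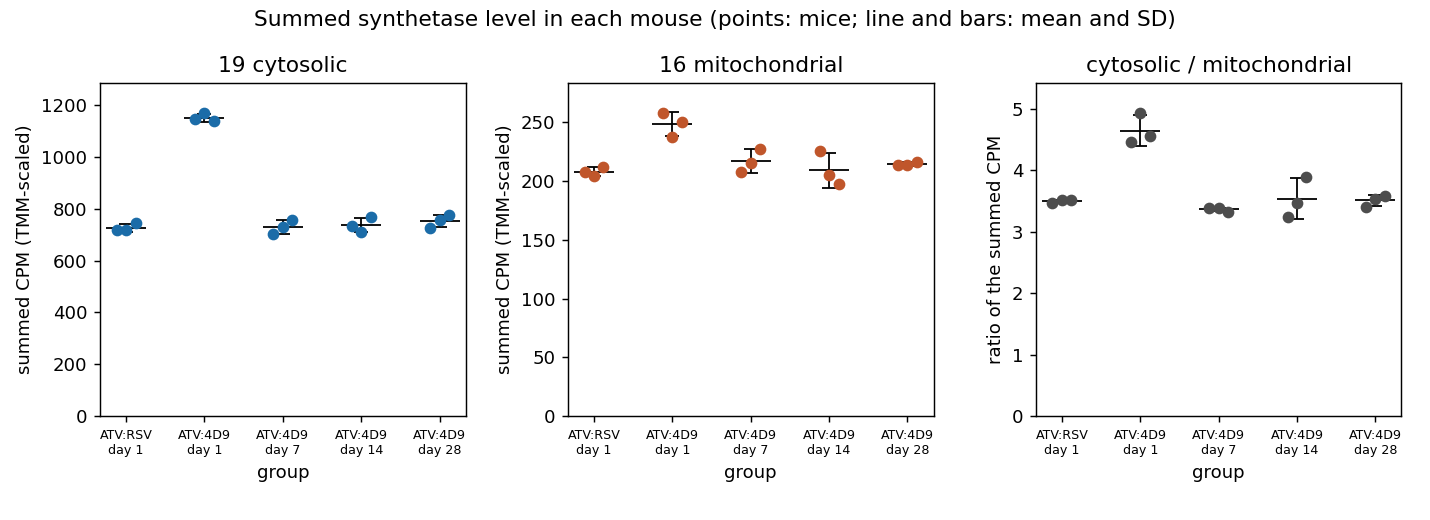
Summed TMM-scaled CPM of the 19 cytosolic members (left) and the 16 mitochondrial members (middle) and the ratio of the sums (right) in each of the 15 mice, with points for mice and lines and bars for mean and SD. The 3 day 1 ATV:4D9 mice sit at 1138 to 1169 CPM for the cytosolic sum, while the other 12 mice lie between 702 and 776 CPM.

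Day 1 was also measured without the cells that held a UMI of the proliferation genes Mki67 or Top2a. Cells were not removed for other cell cycle genes such as Mcm5 or Pcna. After removal of every cell with a Mki67 or Top2a UMI, 16 of 19 cytosolic and 13 of 16 mitochondrial members were called, the mitochondrial ones 11 higher and 2 lower, with median log2 fold changes of 0.79 and 0.41. Of all genes, 33.8% were called higher and 33.3% lower in these cells. Mars2 was no longer called (0.44, adjusted p = 0.0589 by limma-voom). Within the 3 day 1 mice, cells with such a UMI were compared with the remaining cells as a description. The levels here were CPM of each pool of cells without TMM. The log2 difference, cells with minus cells without, had a median of 0.06 over the cytosolic and 0.03 over the mitochondrial members. It was positive in all 3 mice for 9 cytosolic members, among them Vars (0.34 ± 0.086) and Gars (0.23 ± 0.080), and negative in all 3 for 3 of them, Farsa, Nars and Sars. Of the mitochondrial members, 5 were higher in all 3 mice (Cars2, Iars2, Mars2, Pars2 and Yars2) and 3 were lower (Ears2, Lars2 and Nars2), while 35.2% of all genes were higher and 26.4% lower in all 3 mice. Among them Pars2 (0.52 ± 0.10) and Cars2 (0.31 ± 0.074) were higher in those cells and Ears2 (-0.33 ± 0.16) lower (mean ± SD over 3 mice). With cells thinned to 3385 UMIs, 17 cytosolic members were called higher and 2 lower (Aars and Nars, both at -0.14), and 10 mitochondrial members were called higher and 2 lower. Of all genes at that depth, 33.4% were called higher and 32.2% lower. Thinning left out the 10204 cells with fewer UMIs, 610 to 1209 in each ATV:RSV mouse and 280 to 350 in each day 1 mouse.

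At that common depth, the share of cells with a UMI of a member was also read, with no test and no further scaling. In 16 of the 19 cytosolic members the share was higher in each day 1 mouse than in every ATV:RSV mouse, as it was in 26.2% of all genes tested at that depth, while 46.1% of genes lay lower without overlap. For Vars it was 8.90% ± 0.88 in ATV:RSV and 23.8% ± 1.8 at day 1, for Gars 9.11% ± 0.19 and 17.8% ± 1.4, and for Eprs 22.1% ± 2.5 and 33.7% ± 0.55 (mean ± SD, n = 3 each). Aars (17.9% ± 1.1 and 14.5% ± 0.35) and Nars (47.2% ± 1.6 and 40.0% ± 2.0) lay lower without overlap, and Cars overlapped. Of the 16 mitochondrial members, 6 were higher without overlap, 3 (Hars2, Lars2 and Wars2) were lower, and 7 overlapped. Over all cells without thinning, the shares at day 1 were 48.9% for Vars, 39.3% for Gars, 60.6% for Eprs, 33.2% for Aars and 69.2% for Nars, against 15.3%, 15.3%, 34.2%, 28.7% and 63.8% in ATV:RSV, where the cells were shallower. These genes are used by every cell type, so no population without them was at hand to measure free RNA.

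**Figure D5:**
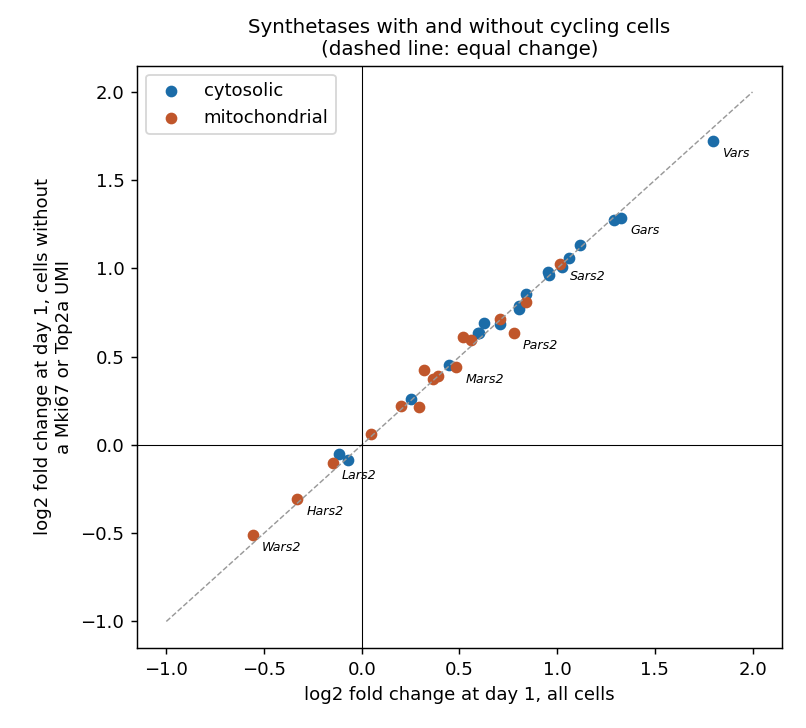
Log2 fold change of each synthetase at day 1 from all cells (horizontal) and from the cells without a Mki67 or Top2a UMI (vertical), blue for cytosolic and orange for mitochondrial members, with a dashed line of equality. The 35 points follow the line, with Vars at 1.80 and 1.72 and Pars2, one of the points farther from it, at 0.78 and 0.64.

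By day 7, 0 of the 35 members were called against ATV:RSV, with 2.99% of all genes called higher and 0.996% lower. At an unadjusted p under 0.05 (limma-voom) there were 2 members, Qars and Sars2, and 2336 of the 14260 genes tested. Both edgeR and DESeq2 also called 0 members. The median log2 fold change of the members was 0.05. Sars2 had the largest difference, at 3.51, 3.64 and 3.19 CPM, all above the ATV:RSV mice (0.33 ± 0.13 (SE), adjusted p = 0.2). Qars, which charges glutamine tRNA, was at 28.1, 31.3 and 31.5 CPM in ATV:RSV and at 32.4, 35.1 and 33.4 CPM at day 7 (0.15 ± 0.06 (SE), adjusted p = 0.196). At day 14 the count was again 0 of 35, with 0.400% of all genes called, and at day 28 it was 0 of 35, with 0% of all genes called. Unadjusted p values under 0.05 (limma-voom) were found for 0 members and 770 of the 14260 genes at day 14. At day 28 they were found for 1 member, Iars, and 571 genes. Neither edgeR nor DESeq2 called a member on either day. Iars was at 20.9, 23.9 and 21.6 CPM at day 28, above its 3 ATV:RSV mice at 18.5, 17.8 and 20.7 CPM (0.22 ± 0.09 (SE), adjusted p = 1.00).

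The difference between day 7 and day 1 was tested directly. From day 1 to day 7, 26 members were called lower and 2, Hars2 and Wars2, were called higher, where 33.9% of all genes were called lower and 33.0% higher. With library size alone, 22 members were called lower and 5 higher, against 27.8% and 41.4% of all genes. The median log2 fold change was -0.81 over the cytosolic and -0.32 over the mitochondrial members. Vars changed by -1.63 ± 0.08 (SE) and Gars by -1.21 ± 0.08, while Wars2 changed by 0.73 ± 0.12 (log2 scale). Not called were Aars, Cars, Nars, Fars2, Lars2, Mars2 and Vars2. Aars2, which was not called at day 1 against ATV:RSV, was called lower at day 7 than at day 1 (-0.26 ± 0.10 (SE), adjusted p = 0.0341). In a single test of any difference among the 5 groups, 28 of 35 members were called, against 66.5% of all genes.

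Of 17 other genes of tRNA charging tested, 10 were called higher at day 1 and 2 lower, with a median log2 fold change of 0.16, where 34.7% of all genes were called higher and 34.6% lower. Besides the scaffolds, Aarsd1, an editing factor for mischarged alanine tRNA, went from 39.6 ± 0.93 to 90.2 ± 4.2 CPM (log2 fold change 1.19). Tufm, the mitochondrial elongation factor that carries charged tRNA to the ribosome, went from 17.3 ± 1.2 to 37.0 ± 1.4 CPM (1.09), and Eef1a1, its cytosolic counterpart, from 3465 ± 62 to 3799 ± 29 CPM (0.13) and then to 4648 ± 54 CPM at day 7 (0.42; values are mean ± SD, n = 3 each). Qrsl1 (0.37) and Mtfmt (0.41), which modify charged mitochondrial tRNA, Trnt1 (0.13), which adds the CCA end to tRNA, and Dtd2 (0.48), a deacylase of mischarged tRNA, were called higher. The genes called lower were Pstk, the kinase that prepares serine-charged tRNA for selenocysteine (-0.62), and Prorsd1, an editing homologue (-0.45). Gatb, Gatc, Dtd1, Sepsecs and Xpot were not called. All these values are TMM-scaled. With library size alone Aars moved from -0.07 to -0.31, a larger shift than the day 1 rises of Eef1a1 and Trnt1. The direction of those small rises may thus depend on the scaling. At day 7 the called genes of this list were Eef1a1 and Aimp1 (0.19), and at day 14 Eef1a1 (0.24). Mars and Tarsl2, synthetases outside the 35, were called higher at day 1, by 0.82 and 1.22.

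A list of 20 other genes of the amino acid response had 19 members tested, of which 12 were called higher at day 1 and 3 lower, with a median log2 fold change of 1.22. The shares of all genes, for this list and those that follow, were 34.7% higher and 34.6% lower. Asns, asparagine synthetase, rose by 3.07 from a low level (0.54 ± 0.19 to 4.46 ± 1.3 CPM, mean ± SD, n = 3 each). Mthfd2 and Shmt2, of mitochondrial one-carbon metabolism, rose by 2.78 and 2.45, and Psat1 and Phgdh, of serine synthesis, by 2.50 and 1.39. Ddit3, Trib3, Cebpb and Nupr1 were not called, and Chac1 did not pass the filter on low counts. The genes called lower were Ddit4 (-2.70), Sesn2 (-0.32) and Atf4 itself, which went from 162 ± 8.0 to 121 ± 6.8 CPM (-0.42). None of the list was called at day 7. Interferon-response genes (14 of 14 called higher, median 3.25) and cell cycle genes (14 of 14, median 4.24) were higher at day 1 too, and of 15 immediate early genes that dissociation is known to induce, 11 were called lower. The part of these programmes in the synthetase changes was not tested.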

How the data were processed

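Single-cell RNA-seq libraries of 15 mice were made with a 3′ UMI kit. Per the labels, groups were the antibody and day, and the batch number was taken as the replicate number. The authors mapped reads to mm10 and counted UMIs with Cell Ranger (version 4.0.0 in the submitters' processing notes, while the study's methods name other versions), then filtered and clustered cells in Seurat. The deposited matrix held raw UMI counts of 32372 genes in 102043 cells, and the deposited cell table held the UMI count and the percent of mitochondrial UMIs per cell. Annotation, cell filters and doublet removal are not given in the sources used here. No doublet caller was run, and cells carrying 3 or more markers of some other type (at most 1.07% of a mouse) were left out as an alternative.

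Counts were summed per mouse, filtered with filterByExpr (minimum count 10, minimum total 15), scaled by TMM and fitted in R 4.3.3 with limma-voom (edgeR 4.0.16 and limma 3.58.1) as group means over all 15 mice. Calls used a Benjamini-Hochberg adjusted p under 0.05 over 14260 genes. The sums, pairs, cluster levels, shares of cells and the comparison of cells with and without a Mki67 or Top2a UMI were described without a test. Fits repeated after removing or thinning cells used the same limma-voom test. Scripts were tested on simulated data.

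All 35 members are accounted for. Full values are given for the 6 cytosolic and 4 mitochondrial members with the largest day 1 change among those called without overlap, for members not called, and for Wars, Gars and Kars. The members, gene lists and motifs were chosen with earlier results of these data known.

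The labels state that each batch holds every condition, so batch pairs the mice. Deviations from the group means of same-batch mice correlated at a mean r of 0.0539 (30 pairs, -0.225 to 0.259) and those of other mice at -0.0267 (60 pairs). Replicate libraries were not copies of each other, since chi-square per degree of freedom was at least 10.6. Genome positions are 1-based from GENCODE M21 (mm10), which matched 31572 gene symbols, and promoter windows are RefSeq on GRCm38.p6. A further synthetase gene and a matched promoter window are not reported here. Shared sequence was sought with BLAST+.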

Additional observations from a re-analysis of the deposited data

Results flagged for a closer look

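The change of the synthetases from ATV:RSV differed between day 1 and day 7 of ATV:4D9. In the direct limma-voom contrast of the 2 days, 28 of the 35 members were called at an adjusted p under 0.05, 26 lower and 2 higher at day 7. Over the whole table, 33.9% of genes fell and 33.0% rose by the same test. No other day was tested against day 1.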

How the results depend on the processing

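The counts of called synthetases at day 1 and between day 7 and day 1 stayed within 1.5 times under the alternatives run, except for the mitochondrial members with library size alone, where 8 were called at day 1 in place of 14. Leaving out each mouse in turn gave 29 to 31 called at day 1 and 26 to 29 between day 7 and day 1. With the mice paired by batch (replicate block), 32 members were called at day 1, the 2 more being Cars and Nars, and no other call at day 1 changed. At days 7, 14 and 28 the count was 0 under all 25 alternatives. The ratio of day 1 to ATV:RSV for the summed cytosolic level was 1.58, and was 2.03 as raw UMIs per cell, 1.34 with library size alone and 1.81 without Nars, an alternative chosen after seeing the data. For the summed mitochondrial level it was 1.19, and was 1.53 as raw UMIs per cell, 1.01 with library size alone and 1.32 without Lars2.

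Among the 35 day 1 fold changes under 25 alternatives each, 845 of the values kept direction and call, 15 lost the call, 12 gained it and 3 changed sign. The sign changes were Aars2 at -0.19 with library size alone and at -0.01 without day 1 ATV:4D9 replicate 3 (-0.01 to 0.14 as each mouse was left out), and Fars2 at -0.04 with library size alone. Calls of Cars, Nars, Ears2, Fars2 and Mars2 changed when single mice were left out. Thinned to a common depth, Cars2 (0.18, from 0.29) and Mars2 (0.43, from 0.48) lost their calls. The causes were not tested. With 62 to 245 UMIs per mouse, Mars2 and Pars2 had the least depth.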

Other observations

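The authors deposited cluster numbers 0, 1 and 2 for the cells, and the summed levels of the synthetases were read in each cluster of each mouse as CPM of that cluster's UMIs without TMM, with no test, since the clusters came from the same cells' expression. In cluster 2, which held 87.3% to 93.5% of the day 1 ATV:4D9 cells and 1.12% to 3.23% of the cells of any other mouse, the cytosolic sum was 1006 to 1065 CPM at day 1 and 753 to 939 CPM in the other 12 mice. In cluster 0 it was 784 to 852 CPM at day 1 and 697 to 812 CPM in the others, and in cluster 1 it was 759 to 895 CPM and 663 to 777 CPM. The mitochondrial sum overlapped between day 1 and the other mice in all 3 clusters, at 215 to 234 against 160 to 249.9 CPM in cluster 2, 181 to 216 against 199.8 to 223 CPM in cluster 0, and 212 to 249 against 216 to 245 CPM in cluster 1.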
